A study of Mus musculus with 11 samples.

Results

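The 10 genes described here, Vcam1, Cdh15, Ncam1, Calcr, Sdc4, Sdc3, Cxcr4, Cd34, Met and Chrdl2, serve to recognise or sort muscle stem cells, and they were taken by symbol from the 20640 gene symbols of the deposited table. All 10 are in the table and all 10 passed the filter on low values, as did 11568 genes in all. Each was measured by bulk RNA-seq in 11 libraries of YFP+ limb muscle cells from Pax7-CreERT2;Rosa-YFP mice. In these mice a tamoxifen-activated Cre expressed with Pax7 switches on YFP, so YFP marks cells that used Pax7 when tamoxifen was given, together with their descendants. Every group carries both alleles and received oral tamoxifen, 240 mg/kg for 5 days, at 12 to 14 weeks of age. The sort also removed cells stained for Sca-1, CD31 or CD45. From geriatric mice (over 28 months) there are 3 VCAM1-negative, 2 VCAM1-low and 3 VCAM1-high libraries, gated on VCAM1 protein at the cell surface. From middle-aged mice (10 to 14 months by the sample labels) there are 3 libraries, whose titles name no VCAM1 gate. Age, gating and the time since labelling therefore change together in every comparison with middle-aged cells and cannot be told apart. The gate names are those of the sample titles, whereas the design text calls the lower gates VCAM1-Mid and VCAM1-Low/-. Nothing in the labels says that each replicate came from its own mice, and p-values then speak only of the spread among libraries, which may be technical.

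Muscle stem cells, or satellite cells, lie between a muscle fibre and its basement membrane, and most of these genes encode proteins that hold them there or let them sense signals in that place. VCAM1 is an immunoglobulin-family adhesion receptor that binds α4 integrins. M-cadherin (Cdh15) joins the cell to the fibre, and NCAM1 is another immunoglobulin-family adhesion protein. The calcitonin receptor (Calcr) signals through cyclic AMP and keeps mouse satellite cells quiescent. Syndecan-4 and syndecan-3 (Sdc4, Sdc3) are heparan sulphate proteoglycans that present growth factors. CXCR4 is the receptor of the chemokine CXCL12, and MET is the receptor tyrosine kinase for hepatocyte growth factor. CD34 is a sialomucin also carried by endothelial cells and fibro-adipogenic progenitors. Chordin-like 2 (Chrdl2) is a secreted antagonist of bone morphogenetic proteins and is thus a marker transcript rather than a surface protein.

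Promoter sequences are shown for 3 genes with different patterns across the libraries: Cdh15, lower in the VCAM1-negative gate within every replicate number, Calcr, highest on average in middle-aged cells, and Cxcr4, lowest on average there. They are the 250 bases before the annotated start from RefSeq (GRCm38.p6, whereas the submitters' processing notes name GRCm39), 5′ to 3′. Of the 10 genes 7 matched that table, all but Vcam1, Ncam1 and Chrdl2. Capitals mark the E-box CANNTG, the motif bound by basic helix-loop-helix factors such as MyoD, which reads the same on both strands. Of 32851 promoter entries of this length, 66.2% hold at least 1 such match and 12.2% hold 3 or more.
Cdh15, chr8:122848124-122848373, plus strand: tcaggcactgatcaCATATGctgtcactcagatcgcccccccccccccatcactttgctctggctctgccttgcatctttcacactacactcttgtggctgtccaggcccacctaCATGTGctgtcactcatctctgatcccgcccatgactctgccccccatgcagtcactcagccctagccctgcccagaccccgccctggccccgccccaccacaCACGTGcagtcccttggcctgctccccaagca
Calcr, outer start, chr6:3764714-3764963, minus strand: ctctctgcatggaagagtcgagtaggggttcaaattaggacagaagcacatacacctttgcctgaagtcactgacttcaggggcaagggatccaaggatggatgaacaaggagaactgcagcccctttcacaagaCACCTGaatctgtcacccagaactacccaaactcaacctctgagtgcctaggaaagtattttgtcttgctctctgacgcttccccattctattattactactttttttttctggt
Cxcr4, chr1:128592300-128592549, minus strand: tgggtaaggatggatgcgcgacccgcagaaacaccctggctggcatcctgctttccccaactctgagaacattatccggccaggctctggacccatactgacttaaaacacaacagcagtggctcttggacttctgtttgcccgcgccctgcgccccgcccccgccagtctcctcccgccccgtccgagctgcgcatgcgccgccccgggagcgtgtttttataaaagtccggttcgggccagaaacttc
Cdh15 holds 3 matches, whose first bases lie at -236, -135 and -32 from the start, and the outer Calcr start holds 1, at -115. The Cxcr4 stretch holds 0. Of the other stretches matched, Met holds 1 and Cd34, Sdc4, Sdc3 and the inner Calcr start hold 0. These matches describe letters in a window and were not tested as binding sites.

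The table gives RPKM, in which reads are divided by gene length and by the size of the library, so levels can be set side by side between genes. Summed RPKM ran from 413666 to 455394 per library, and the depth, estimated from the steps between low values, from 19900000 to 29800000 reads. Pax7, the transcription factor that defines satellite cells, was at 1.71 to 4.0 RPKM in VCAM1-negative, 1.97 to 7.36 RPKM in VCAM1-low, 3.94 to 5.16 RPKM in VCAM1-high and 5.75 to 7.85 RPKM in middle-aged libraries. Muscle stem cell markers (8 of 8 listed in the table) summed to 1992 to 3368 RPKM in the 11 libraries. Markers of mature myofibres (10 of 11 in the table) summed to 699, 7235 and 5635 RPKM in VCAM1-negative replicates 1 to 3, against 56.3 to 336 RPKM in the other 8 libraries. Macrophage markers (9 of 9) summed to 976 RPKM in VCAM1-high replicate 3, against 33.1 and 37.1 RPKM in the other VCAM1-high libraries and 121 to 246 RPKM in VCAM1-negative ones. Endothelial markers (11 of 11) summed to 226 RPKM in middle-aged replicate 3, against 16.8 and 26.2 RPKM in the other middle-aged libraries, and to 35.7 to 104 RPKM in VCAM1-negative ones. Fibro-adipogenic progenitor markers (9 of 9) ranged from 415 to 1206 RPKM, the highest again in middle-aged replicate 3. No myofibre or endothelial marker was at 0 in any library, while Adgre1, Csf1r, C1qc, Mrc1 and Clec3b were each listed at 0 in 1 library and Ptprc, the gene of CD45, in middle-aged replicates 1 and 2. Leukocyte, Schwann cell, pericyte, tenocyte and erythroid lists summed to 1.12 to 9.31, 2.52 to 19.6, 54.5 to 403, 5.73 to 120 and 4.36 to 510 RPKM.

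Averaged over all libraries, Sdc4 was the most abundant of the 10 genes, at rank 63 among all symbols, and it was the highest of them in each of the 11 libraries. Chrdl2, Vcam1, Cd34 and Cdh15 followed at ranks 181, 313, 375 and 438. Calcr (1340) and Ncam1 (1705) were intermediate, and Cxcr4 (4059), Sdc3 (4286) and Met (6116) were the least abundant. The genes also differed in how far replicates of a group lay apart. The standard deviation within groups, on the log2(RPKM + 1) scale, was 0.89 for Cdh15, 0.86 for Chrdl2 and 0.69 for Cd34, against 0.23 for Met, 0.28 for Ncam1 and 0.30 for Sdc4. The median over all tested genes was 0.28.

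**Figure D1:**
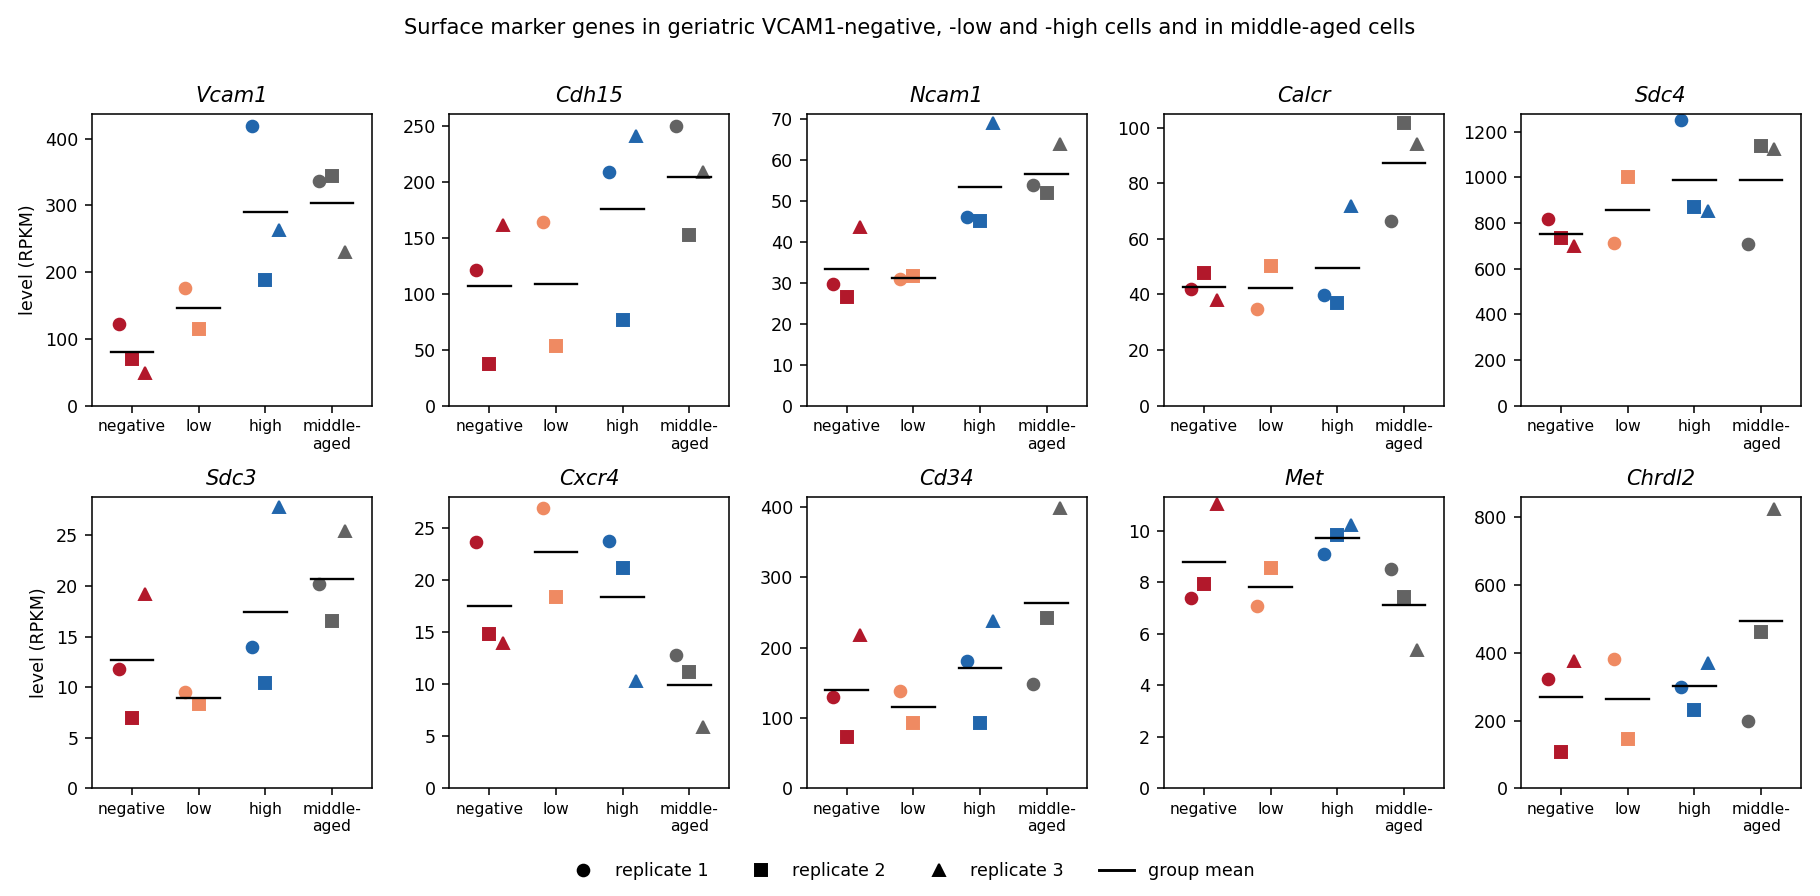
Level of each gene in RPKM (vertical axes, linear from 0) in the VCAM1-negative, VCAM1-low and VCAM1-high gates of geriatric mice and in middle-aged cells (horizontal axes). Points are libraries, with the marker shape giving the replicate number, and black lines are group means. The Vcam1 means are 80.3, 146, 289.9 and 303 RPKM in that order, and the middle-aged libraries hold the highest Calcr mean and the lowest Cxcr4 mean.

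Vcam1 RNA followed the gate set on its protein, which checks the labels. Its level was 122, 70.4 and 48.6 RPKM in VCAM1-negative replicates 1 to 3, 177 and 115 RPKM in VCAM1-low replicates 1 and 2, 418, 188 and 263 RPKM in VCAM1-high replicates 1 to 3, and 336, 344 and 230.1 RPKM in middle-aged replicates 1 to 3. The VCAM1-negative libraries lay below every VCAM1-high and every middle-aged library, while the highest of them exceeded VCAM1-low replicate 2. Group means were 80.3 ± 37.6 RPKM (SD, n = 3) in VCAM1-negative, 146 ± 43.6 RPKM (n = 2) in VCAM1-low, 289.9 ± 117 RPKM (n = 3) in VCAM1-high and 303 ± 63.6 RPKM (n = 3) in middle-aged cells. Vcam1 RNA thus remained readily measurable in the VCAM1-negative gate. In bulk RNA, fewer cells making a transcript and less of it per cell cannot be told apart.

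Neighbours in the order of the Vcam1 means did not pass the test, a limma fit of log2(RPKM + 1) in which a gene is called at an adjusted p under 0.05. The log2 fold change was -0.12 ± 0.37 (SE) for VCAM1-high against middle-aged (limma adjusted p = 0.900), -0.94 ± 0.41 for VCAM1-low against VCAM1-high (adjusted p = 0.982) and -0.92 ± 0.41 for VCAM1-negative against VCAM1-low (adjusted p = 0.9999). A limma F test among the 4 groups called Vcam1 (adjusted p = 0.0345) and none of the other 9 genes, where 3.32% of all genes tested were called. The geriatric gates were set on VCAM1 protein, so a Vcam1 call checks the sort and is no independent result. That call was lost without any 1 of 8 libraries, and held without VCAM1-high replicate 2, VCAM1-high replicate 3 or VCAM1-negative replicate 1.

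Between VCAM1-negative and VCAM1-high cells the differences were -1.86 log2 units for Vcam1, -0.79 for Cdh15 and -0.67 for Ncam1. On group means 0 of the 10 genes and 0 of 11568 passed (0%). An unadjusted limma p under 0.05 was reached by 755, Vcam1 and Ncam1 among them, a number not far above that given by chance. Count-based tools do not apply to RPKM. Same-numbered geriatric libraries deviated together, and when the fit held replicate number as a block (the 8 geriatric libraries) Vcam1, Cdh15 and Ncam1 fell, where 3.26% of all genes were called lower. With the block in all 11 libraries Vcam1 alone of the 10 was called, where 0.285% of genes were called lower. These gates were set on VCAM1 protein, so the Vcam1 calls check the sort. The median log2 fold change of the 10 genes, Vcam1 included, was -0.35, and that of all genes tested was -0.07.

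Cdh15 was measured at 121, 37.6 and 162 RPKM in VCAM1-negative replicates 1 to 3, 164 and 53.7 RPKM in VCAM1-low replicates 1 and 2, and 209, 77.0 and 241 RPKM in VCAM1-high replicates 1 to 3. The replicates numbered 2 were the lowest of each gate and the gates overlapped, but within each number the negative gate was the lowest. The differences between the negative and high gates within numbers 1, 2 and 3 were -0.78, -1.01 and -0.57 on the log2 scale. Without the block the change was -0.79 ± 0.59 (limma adjusted p = 0.860), with values from -1.30 without VCAM1-high replicate 2 to -0.17 without VCAM1-negative replicate 2, and with it in geriatric libraries -0.79 ± 0.11 (adjusted p = 0.0178).

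Ncam1 stood at 29.7, 26.5 and 43.5 RPKM in VCAM1-negative replicates 1 to 3, 30.9 and 31.6 RPKM in VCAM1-low replicates 1 and 2, and 46.1, 45.0 and 69.1 RPKM in VCAM1-high replicates 1 to 3. All VCAM1-negative and all VCAM1-low libraries lay below all VCAM1-high ones. Within numbers the negative gate was below the high gate by similar amounts, with differences of -0.62, -0.74 and -0.65 on the log2 scale. The change was -0.67 ± 0.22 without the block (limma adjusted p = 0.493) and -0.67 ± 0.10 with it in geriatric libraries (adjusted p = 0.0184).

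For Vcam1 the differences within numbers were -1.77, -1.41 and -2.41 on the log2 scale. Its limma adjusted p was 0.112 without the block, 0.00749 with it in geriatric libraries and 0.0187 with it in all 11. The Cdh15 and Ncam1 calls were lost without VCAM1-high replicate 1 or 2, VCAM1-low replicate 1 or 2 or VCAM1-negative replicate 2 (limma adjusted p from 0.0608 to 0.109), and the Vcam1 call held without any 1 of the 8 libraries. Summed myofibre markers were higher in each VCAM1-negative library than in any other library, as given above, and their part in these differences was not tested.

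**Figure D2:**
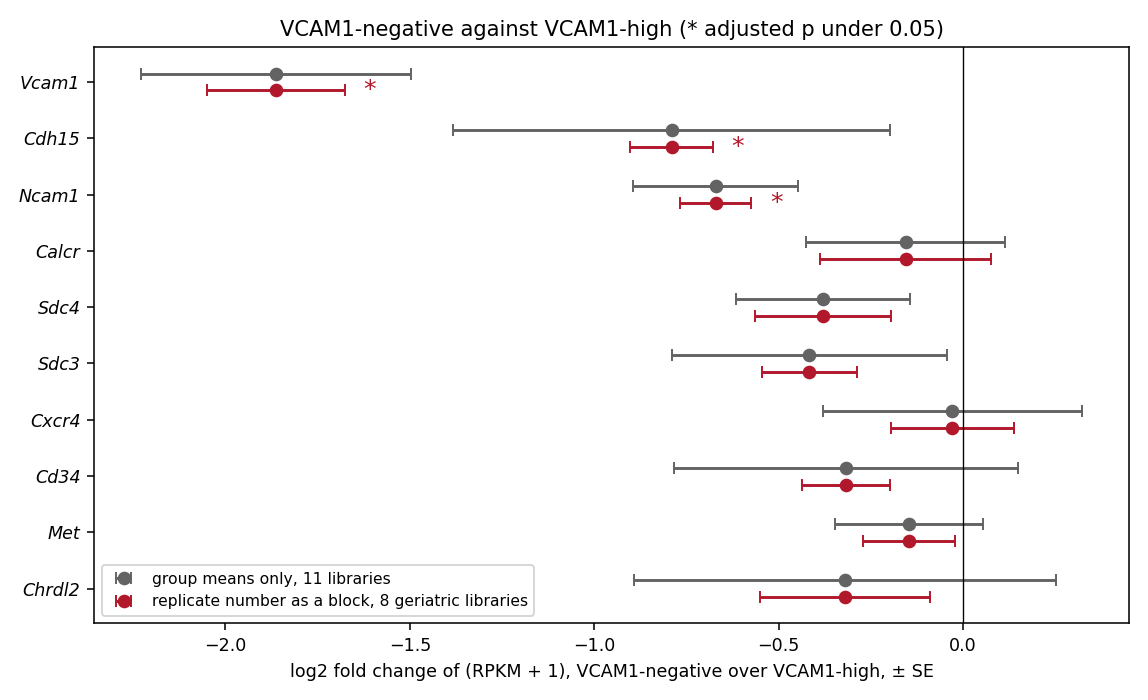
Change of each gene between VCAM1-negative and VCAM1-high cells as log2 fold change of (RPKM + 1) with its standard error (horizontal axis), from the fit on group means in 11 libraries and from that on the 8 geriatric libraries blocked by replicate number. Asterisks mark adjusted p under 0.05, which Vcam1, Cdh15 and Ncam1 reached with the block.

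The other 7 genes did not pass between these gates in any of these 3 fits. Sdc4 was measured at 816, 733 and 701 RPKM in VCAM1-negative replicates 1 to 3, and at 1249, 868 and 852 RPKM in VCAM1-high replicates 1 to 3. All negative libraries lay below all high ones, as they did for Vcam1 and Ncam1 and for 8.08% of all genes. The Sdc4 change was -0.38 ± 0.24 (limma adjusted p = 0.850, and 0.270 with the block in geriatric libraries). Its relative Sdc3 was far less abundant, at 11.8, 6.98 and 19.2 RPKM in VCAM1-negative and 14.0, 10.4 and 27.8 RPKM in VCAM1-high replicates 1 to 3. For Sdc3 number 3 was highest and number 2 lowest in both gates, which overlapped. Vcam1, Cdh15, Ncam1, Sdc4, Sdc3 and Cd34 were lower in the negative gate within every replicate number, as were 30.6% of all genes, and none of the 10 was higher within every number.

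Calcr did not follow the gate within geriatric cells. It was measured at 41.9, 47.8 and 38.2 RPKM in VCAM1-negative replicates 1 to 3, 34.9 and 50.1 RPKM in VCAM1-low replicates 1 and 2, and 39.8, 37.1 and 71.9 RPKM in VCAM1-high replicates 1 to 3. VCAM1-high replicate 3 alone left the range of the other geriatric libraries. The log2 difference between the negative and high gates was -0.16 ± 0.27 (limma adjusted p = 0.928), and 0.21 without the libraries numbered 3. VCAM1-high replicate 3 also carried the highest macrophage sum, whose part was not tested. Cxcr4, Met and Chrdl2 showed differences of -0.03 ± 0.35, -0.15 ± 0.20 and -0.32 ± 0.57 between these gates (limma adjusted p from 0.911 to 0.991).

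VCAM1-low cells were compared with both neighbouring gates on 2 libraries. Against VCAM1-high, limma called 0% of genes. Of 11568 genes, 337 were at an unadjusted p under 0.05, Vcam1 and Ncam1 among them, which is fewer than chance gives. Vcam1, Ncam1, Sdc3 and Met lay below all VCAM1-high libraries in both VCAM1-low libraries, as did 13.1% of all genes. Ncam1 in VCAM1-low cells averaged 31.3 ± 0.517 RPKM (SD, n = 2), and its change against VCAM1-high was -0.73 ± 0.25 (limma adjusted p = 0.982). Between VCAM1-negative and VCAM1-low cells limma called 0% of genes. There 217 were at an unadjusted p under 0.05, Vcam1 among them, again fewer than chance gives. All 10 genes overlapped between these gates, where 10.9% of all genes did not.

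**Figure D3:**
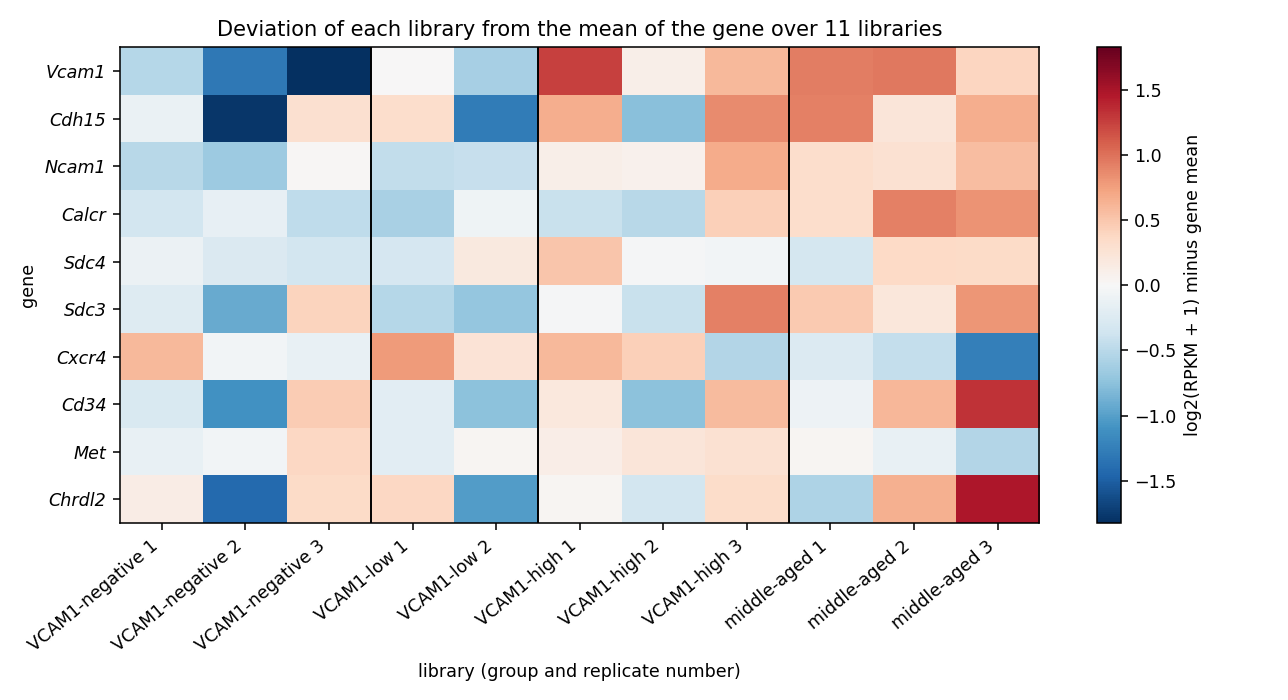
Deviation of each library (columns, grouped by gate and age) from the mean of each gene (rows) over 11 libraries, as log2(RPKM + 1). Vcam1 runs from -1.83 in VCAM1-negative replicate 3 to 1.25 in VCAM1-high replicate 1, Cdh15, Cd34 and Chrdl2 are below their means in the geriatric libraries numbered 2, and Cd34 and Chrdl2 peak in middle-aged replicate 3 (1.32 and 1.48).

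Between VCAM1-high geriatric and middle-aged cells, none of the 10 genes passed on group means, where 0.605% of all genes did. Calcr had the lowest p-value of the 10. It was measured at 66.6, 101.5 and 94.1 RPKM in middle-aged replicates 1 to 3, a range that VCAM1-high cells reached in replicate 3 alone. The change was -0.85 ± 0.27 (limma adjusted p = 0.179), and Calcr was called without VCAM1-high replicate 3 (adjusted p = 0.0399).

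Cxcr4 went the other way. It was measured at 23.6, 14.8 and 13.9 RPKM in VCAM1-negative replicates 1 to 3, 26.9 and 18.4 RPKM in VCAM1-low replicates 1 and 2, 23.8, 21.2 and 10.3 RPKM in VCAM1-high replicates 1 to 3, and 12.8, 11.1 and 5.90 RPKM in middle-aged replicates 1 to 3. Every VCAM1-negative and VCAM1-low library exceeded every middle-aged one, whereas VCAM1-high replicate 3 lay within the middle-aged range. Within each replicate number VCAM1-high was above middle-aged, by 0.84, 0.87 and 0.71 log2 units. The same held for Met and for 26.1% of all genes. Deviations from group means correlated at 0.21, 0.33 and 0.55 in these same-numbered pairs, and at -0.48 to 0.33 in differently numbered ones. The pairing is therefore uncertain, and the blocked value is given beside the unblocked one. The change was 0.81 ± 0.35 (limma adjusted p = 0.318) without the block and 0.81 ± 0.17 with it in 11 libraries (adjusted p = 0.0318), where 4.17% of genes were called higher. Unblocked, it was 0.50 without middle-aged replicate 3 and 1.16 without VCAM1-high replicate 3. In both groups Cxcr4 was lowest in the library numbered 3, which had the highest endothelial and macrophage sums of its group, and their part was not tested.

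Met was measured at 7.40, 7.91 and 11.02 RPKM in VCAM1-negative replicates 1 to 3, 7.09 and 8.53 RPKM in VCAM1-low replicates 1 and 2, 9.07, 9.82 and 10.2 RPKM in VCAM1-high replicates 1 to 3, and 8.50, 7.41 and 5.37 RPKM in middle-aged replicates 1 to 3. The VCAM1-high libraries lay above all middle-aged ones, as they did for 13.8% of genes. The change was 0.42 ± 0.20 (limma adjusted p = 0.356). Sdc4 was at 708, 1135 and 1126 RPKM in middle-aged replicates 1 to 3, overlapping with the VCAM1-high values, and its change was 0.01 ± 0.24 (limma adjusted p = 0.987).

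Against middle-aged cells, VCAM1-negative cells had lower Vcam1 (-1.98 ± 0.37 log2 units, limma adjusted p = 0.0104), lower Calcr (-1.0 ± 0.27, adjusted p = 0.0349) and lower Ncam1 (-0.78 ± 0.22, adjusted p = 0.0431). These 3 of 10 genes were called lower and 0 higher, where 7.38% of all genes were called lower and 7.06% higher. The negative gate was set on VCAM1 protein, so the Vcam1 call checks the sort, and Calcr and Ncam1 are the calls beside it. Ncam1 was at 53.9, 52.0 and 63.9 RPKM in middle-aged replicates 1 to 3, above all 3 VCAM1-negative libraries. For all 3 called genes the negative libraries lay below all middle-aged ones, which held for 20.3% of genes. For Cxcr4 they lay above, which held for 18.7%, and its change of 0.78 ± 0.35 did not pass (limma adjusted p = 0.146). The median change of the 10 genes, Vcam1 included, was -0.81, and that of all genes tested was -0.02. Myofibre markers moved with this comparison too, at 699 to 7235 RPKM in VCAM1-negative against 162 to 336 RPKM in middle-aged libraries, and their part in these calls and in those of the partner lists was not tested.

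The Vcam1 call against middle-aged cells held without any 1 of the 11 libraries (limma adjusted p up to 0.0420) and was lost without all libraries numbered 3 (0.0521). The Calcr call was lost without any 1 of the 3 VCAM1-negative libraries or middle-aged replicate 2 or 3 (0.0695 to 0.0882). The Ncam1 call was lost without any 1 of 8 libraries, all but VCAM1-high replicates 2 and 3 and VCAM1-negative replicate 3 (0.0541 to 0.159).

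Cdh15, Sdc3, Cd34 and Chrdl2 had lower means in VCAM1-negative than in middle-aged cells and did not pass. Cdh15 was measured at 250.1, 153 and 209 RPKM in middle-aged replicates 1 to 3, and Sdc3 at 20.2, 16.5 and 25.4 RPKM. Both overlapped with the VCAM1-negative values given above. Their changes were -1.14 ± 0.59 and -0.75 ± 0.37 (limma adjusted p = 0.199 and 0.180). Without VCAM1-negative replicate 3 the changes were -1.55 for Cdh15 and -1.08 for Sdc3, and without VCAM1-negative replicate 2 they were -0.51 and -0.41.

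Cd34 was measured at 130.0, 72.9 and 218 RPKM in VCAM1-negative replicates 1 to 3, 138 and 93.4 RPKM in VCAM1-low replicates 1 and 2, 181, 93.5 and 237 RPKM in VCAM1-high replicates 1 to 3, and 149, 242 and 397 RPKM in middle-aged replicates 1 to 3. Chrdl2 was measured at 324, 109 and 374 RPKM in VCAM1-negative replicates 1 to 3, 381 and 145 RPKM in VCAM1-low replicates 1 and 2, 300.2, 232 and 369.8 RPKM in VCAM1-high replicates 1 to 3, and 199, 461.5 and 823 RPKM in middle-aged replicates 1 to 3. For both genes middle-aged replicate 3 was the highest of the 11 libraries and number 2 was the lowest of each geriatric gate. The changes were -0.93 ± 0.47 for Cd34 and -0.84 ± 0.57 for Chrdl2 (limma adjusted p = 0.185 and 0.325). Middle-aged replicate 3 also carried the highest endothelial and fibro-adipogenic progenitor sums, whose part was not tested.

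**Figure D4:**
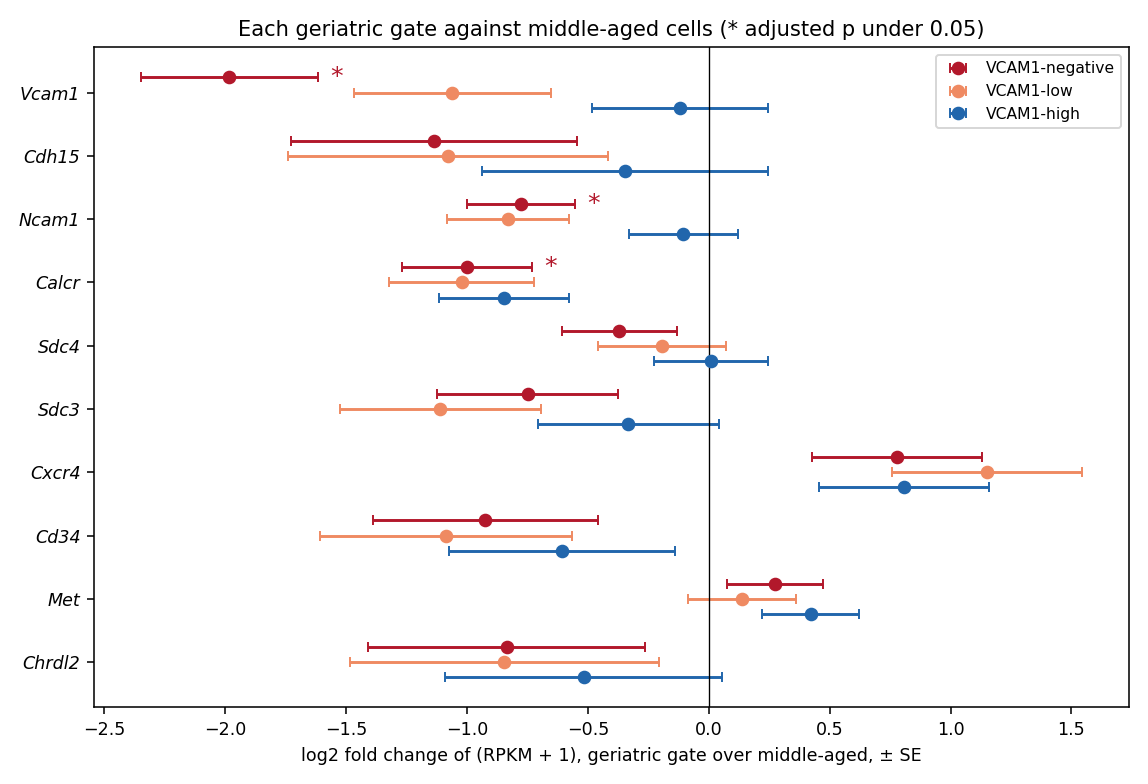
Change of each gene in the VCAM1-negative, VCAM1-low and VCAM1-high gates of geriatric mice against middle-aged cells, as log2 fold change of (RPKM + 1) with its standard error (horizontal axis). Asterisks mark limma adjusted p under 0.05 on group means, reached by Vcam1, Ncam1 and Calcr in the VCAM1-negative gate, and all 3 comparisons share the middle-aged libraries.

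In VCAM1-low cells 0 of the 10 genes were called against middle-aged cells, where 4.11% of all genes were. The lowest adjusted p-values were those of Calcr (-1.02 ± 0.30, limma adjusted p = 0.0742) and Ncam1 (-0.83 ± 0.25, adjusted p = 0.0782). Vcam1, Ncam1, Calcr, Sdc3 and Cd34 lay below all middle-aged libraries in both VCAM1-low libraries, as did 24.9% of genes, and Cxcr4 lay above, as did 19.9%. The Cxcr4 change there was 1.15 ± 0.39 (limma adjusted p = 0.104).

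Partners of these proteins were read from 11 lists. Of 24 tested genes for other satellite cell surface proteins, 3 rose and 5 fell in VCAM1-negative against middle-aged cells, with a median of -0.39 against -0.02 over all genes. Over all genes 7.06% rose and 7.38% fell in this comparison, which is the background for the count of each list. The lists were chosen with earlier results of these data known, so their counts and medians are a description and no independent test. Among those that fell were the dystroglycan gene Dag1 (-2.23 ± 0.50, limma adjusted p = 0.0197), the caveolin gene Cav1 (-1.86 ± 0.28, adjusted p = 0.00552) and the laminin-receptor integrin genes Itga7 (-1.36 ± 0.39, adjusted p = 0.0426) and Itgb1 (-0.72 ± 0.18, adjusted p = 0.0257). The syndecan gene Sdc2 also fell (-1.09 ± 0.27, adjusted p = 0.0263). The interleukin-6 receptor gene Il6ra (2.02 ± 0.30, limma adjusted p = 0.00536), the leukaemia inhibitory factor receptor gene Lifr (1.02 ± 0.24, adjusted p = 0.0235) and the tetraspanin gene Tspan33 (0.94 ± 0.27, adjusted p = 0.0429) rose. Il6ra was at 0.36 to 0.70 RPKM in middle-aged and 4.16 to 6.96 RPKM in VCAM1-negative libraries. It passed the filter on low values only through geriatric libraries, where it is high.

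Dag1 was measured at 109, 41.2 and 114 RPKM in VCAM1-negative replicates 1 to 3, 112 and 51.4 RPKM in VCAM1-low replicates 1 and 2, 202.5, 82.2 and 299.9 RPKM in VCAM1-high replicates 1 to 3, and 439.9, 339.8 and 365 RPKM in middle-aged replicates 1 to 3. Every geriatric library was below every middle-aged one. Taking each gate alone, this held for 20.3% of all genes in VCAM1-negative, 24.9% in VCAM1-low and 6.36% in VCAM1-high libraries. Within each number the negative gate was below the high gate, as for 30.6% of all genes. Between VCAM1-negative and VCAM1-high cells 0 of the 24 genes passed on group means. With the block in geriatric libraries, where 3.26% of all genes were called lower, 4 fell, Dag1 (-1.08 ± 0.13, limma adjusted p = 0.0126), Sdc2 (-0.70 ± 0.12, adjusted p = 0.0260) and Itga7 (-0.94 ± 0.17, adjusted p = 0.0310) among them.

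Of 12 tested genes for calcitonin receptor partners and the cyclic AMP pathway, 5 fell and 0 rose in VCAM1-negative against middle-aged cells (median -0.50), where 7.38% of all genes fell and 7.06% rose. Ramp2, which encodes a receptor-activity-modifying protein, was measured at 28.5, 26.7 and 22.7 RPKM in VCAM1-negative replicates 1 to 3, 36.5 and 31.3 RPKM in VCAM1-low replicates 1 and 2, 47.4, 46.8 and 60.8 RPKM in VCAM1-high replicates 1 to 3, and 135, 76.3 and 96.8 RPKM in middle-aged replicates 1 to 3. Its 4 groups did not overlap. Of all genes, 20.3% lay below all middle-aged libraries and 8.08% below all VCAM1-high libraries in every VCAM1-negative library. The share separating all 4 groups was not counted. The change of Ramp2 was -1.91 ± 0.22 between VCAM1-negative and middle-aged cells (limma adjusted p = 0.00216), and -0.96 ± 0.22 between VCAM1-negative and VCAM1-high cells (adjusted p = 0.180 on group means, 0.0200 with the block in geriatric libraries). The stimulatory G protein gene Gnas (-1.30 ± 0.38), the adenylyl cyclase gene Adcy7 (-1.33 ± 0.35) and the protein kinase A genes Prkaca (-0.78 ± 0.22) and Prkar1a (-0.80 ± 0.16) also fell against middle-aged cells (limma adjusted p from 0.0135 to 0.0431).

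Among 14 tested immunoglobulin and cadherin adhesion genes, 2 rose and 3 fell in VCAM1-negative against middle-aged cells (median -0.29), where 7.06% of all genes rose and 7.38% fell. Icam1, which encodes an immunoglobulin-family ligand of leukocyte integrins, was measured at 98.5, 110.7 and 87.6 RPKM in VCAM1-negative replicates 1 to 3, 90.1 and 114 RPKM in VCAM1-low replicates 1 and 2, 70.2, 94.9 and 94.0 RPKM in VCAM1-high replicates 1 to 3, and 28.1, 20.9 and 42.3 RPKM in middle-aged replicates 1 to 3. Every geriatric library exceeded every middle-aged one, and the gates overlapped. Taking each gate alone, 18.7% of all genes in VCAM1-negative, 19.9% in VCAM1-low and 13.8% in VCAM1-high libraries exceeded all middle-aged ones. The rise of Icam1 against middle-aged cells was 1.72 ± 0.25 in VCAM1-negative cells (limma adjusted p = 0.00432) and 1.52 ± 0.25 in VCAM1-high cells (adjusted p = 0.0266). Cadm1 rose in VCAM1-negative cells (0.96 ± 0.18, adjusted p = 0.0104), and Cdh13, Jam3 and Cdon fell (-1.12, -0.97 and -0.69, adjusted p from 0.0170 to 0.0377). With the block in geriatric libraries Cdh13 and Cdon were also lower in VCAM1-negative than in VCAM1-high cells (limma adjusted p = 0.0430 and 0.0289).

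The counts of the other lists in this comparison are small and are to be read against the same shares of all genes, 7.06% higher and 7.38% lower. Of 18 tested heparan sulphate and syndecan partner genes 1 rose (Hs6st1, 0.92 ± 0.21) and 3 fell, Gpc6 (-0.66 ± 0.19) and the chain-building glycosyltransferase genes Ext1 (-1.14 ± 0.26) and Ext2 (-1.16 ± 0.30), with limma adjusted p from 0.0207 to 0.0460. Gpc6 was near the floor, at 0.34 to 0.48 RPKM in VCAM1-negative and 0.84 to 1.56 RPKM in middle-aged libraries. It passed the filter on low values only through VCAM1-high and middle-aged libraries. Of 8 CXCR4 ligand and partner genes Mif, the gene of a cytokine that also binds CXCR4, fell (-1.21 ± 0.26, limma adjusted p = 0.0165), and 0 rose. Of 5 CD34-family and partner genes 2 rose (Ezr and Slc9a3r1, 0.84 and 0.78) and 1 fell (Podxl2, -1.33), with limma adjusted p from 0.0253 to 0.0458. Among 13 tested genes of bone morphogenetic protein signalling and its antagonists 2 fell, Fstl1 (-1.26 ± 0.21, limma adjusted p = 0.00843) and Bmp1 (-1.40 ± 0.33, adjusted p = 0.0229), and the change of the follistatin gene Fst was 1.25 ± 0.38 (adjusted p = 0.0512). Of 6 tested genes for VCAM1 receptors, sheddases and cytoskeletal linkers, the linker gene Ezr rose and the integrin gene Itgb1 fell, both also on other lists. Of 14 genes around MET, 6 catenin and cadherin partner genes and 3 genes linked to NCAM1 (Gfra1, Gdnf and Fyn), 0 passed. The polysialyltransferase genes St8sia2 and St8sia4 did not pass the filter on low values and were not tested. Over the 11 lists 0 genes passed between VCAM1-negative and VCAM1-high cells on group means. With the block, Fstl1 fell there in 11 libraries, and 12 list entries of 123 fell in the geriatric libraries, where 3.26% of all genes did.

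Between VCAM1-high and middle-aged cells Icam1 alone of the lists passed on group means. With the block in 11 libraries 6 list genes rose, where 4.17% of all genes did, and 9 fell, where 2.81% of all genes did. The pairing of middle-aged libraries in that block is uncertain, as given above for Cxcr4. Those that rose were Icam1, Il6ra, Lifr, Cadm1, the urokinase receptor gene Plaur and Fst (limma adjusted p from 0.0100 to 0.0408). Of them, Il6ra passed the filter on low values only through geriatric libraries, as given above. Those that fell were Dag1, Cav1, Cdh13, Ramp2, Gnas, Prkar1a, Mif, Podxl2 and Bmp1 (limma adjusted p from 0.00534 to 0.0477). Ramp2 changed by -0.95 ± 0.19 in that fit (adjusted p = 0.0266, and 0.0850 without the block) and Dag1 by -1.14 ± 0.28 (adjusted p = 0.0436, and 0.318 without the block).

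Across the 11 libraries the 10 genes did not all move together. Pearson's r on log2(RPKM + 1) was 0.91 between Ncam1 and Sdc3, 0.90 between Cd34 and Chrdl2, 0.88 between Cd34 and Sdc3, and -0.85 between Calcr and Cxcr4, as a description over libraries that share groups and replicate numbers. Profiles were compared with 7279 genes averaging at least 5 RPKM, after predicted genes, clones and sex-linked genes were left out. Those most like Vcam1 over the 11 libraries were Mterf3 (r = 0.93), Cdon (0.93), Cnn3 (0.93), Smc6 (0.92) and Atp6v1a (0.91). The closest to Ncam1 were Vim (0.98) and Epb41l2 (0.97), to Sdc3 Sec31a (0.98) and Parva (0.97), to Cd34 Epb41l3 (0.99) and Tcaf1 (0.97), and to Cdh15 Decr2 (0.98) and Oma1 (0.98). Cxcr4 was most like Znrf2 (0.96) and Tcirg1 (0.95), Chrdl2 like Nppc (0.94) and Slc2a10 (0.92), and Calcr like Fbxo34 and Niban1 (0.93 each). Met and Sdc4 had the least close neighbours, Pld1 (0.92) and Rfxank (0.90) for Met and Ctso (0.92) and Scamp1 (0.89) for Sdc4.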

How the data were processed

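The authors deposited RPKM values, that is reads per unit of gene length and of sequencing depth, in a table of 20640 symbols and 11 libraries. Per the submitters' processing notes, the tools were STAR 2.7.5b, Bowtie2 2.1.0, SAMtools 0.1.19 and cutadapt 3.1, with GRCm39 as the build. How each tool was set, the counting step and the annotation: not given in the sources used here. Per the labels' protocols, RNA was amplified with a SMART-Seq v4 kit and sequenced as paired ends. Depth was estimated at 19900000 to 29800000 reads from values of 0.1 RPKM or less in 3428 genes with 1 annotated transcript, of which 63.3% to 71.9% lay within 0.1 of a whole read (chance gives 20%). Whole reads were not recovered for the rest, and no count test was run. In the shallowest library a single read on 1 kb of gene is worth 0.0503 RPKM.

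The test was limma 3.58.1 (R 4.3.3) on log2(RPKM + 1), and it used the 11568 genes that reached 1 RPKM in 2 or more libraries. A model of 4 group means with a variance trend was fitted to all 11 libraries, with Benjamini-Hochberg adjustment over all genes tested. The added 1 understates fold changes of low genes. The fit was tested on simulated data. Deviations from group means correlated at 0.40 to 0.58 in the 7 same-numbered pairs between geriatric gates, against -0.57 to 0.09 in the 14 differently numbered ones. Deviations within a group cancel out, so positive same-numbered values pull the others down, and this contrast is partly arithmetic. Same-numbered VCAM1-high and middle-aged libraries were at 0.21, 0.33 and 0.55, and differently numbered ones at -0.48 to 0.33. VCAM1-high replicate 1 was closer to middle-aged replicate 2 (0.33) than to middle-aged replicate 1 (0.21). The numbers in the titles were taken to pair these libraries, with less ground for the middle-aged ones. VCAM1-negative with middle-aged pairs were at -0.02 to 0.08 and were not taken as paired, although the block in 11 libraries covers them too. The 10 genes, the lists and the tests were chosen with earlier results of these data known. Text names the 10 genes, checks of the sort, from each list up to 3 genes with the smallest p in the main comparisons plus any called, and the genes most correlated with each of the 10. Alternatives changed the pseudocount, filter, scaling, variance model, block and libraries.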

Additional observations from a re-analysis of the deposited data

How the results depend on the processing

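The log2 fold changes of the 10 genes and the counts of them called were recomputed under each alternative. Of the recomputed fold changes 597 kept their direction and side of the threshold, 11 became called, 34 were no longer called and 16 changed sign; of the counts 125 stayed within 1.5 times and 33 moved. With replicate number as a block in 11 libraries, the count called was 1 in place of 0 for VCAM1-negative against VCAM1-high (3 with the block in geriatric libraries only), 1 in place of 0 for VCAM1-high against middle-aged, 5 in place of 0 for VCAM1-low against middle-aged, 7 in place of 3 for VCAM1-negative against middle-aged and 6 in place of 1 in the F test. The block changed no other count, and VCAM1-negative and VCAM1-low were not shown to pair with middle-aged libraries. These counts are to be read against the shares of all genes called in either direction. The block in 11 libraries called 0.562% for VCAM1-negative against VCAM1-high, where the geriatric block called 4.17%. Against middle-aged cells it called 6.98% for VCAM1-high, 15.8% for VCAM1-low and 31.6% for VCAM1-negative, and 17.5% in the F test. Without a filter on low values the counts were 1 for VCAM1-negative against middle-aged, 0 in the F test and 0 for the geriatric block. Without the libraries numbered 3 they were 1 for VCAM1-negative against middle-aged and 0 in the F test. With only the 2 groups compared the geriatric block called 1 gene, Vcam1. The cause of these moves was not tested. Leaving out 1 library at a time gave counts of 0 to 1 for VCAM1-negative against VCAM1-high, and likewise for VCAM1-low and for VCAM1-high against middle-aged, 1 to 3 for VCAM1-negative against middle-aged and for the geriatric block, and 0 to 2 in the F test. All changes of sign were in uncalled genes. Without the libraries numbered 3, Calcr was at 0.21 for VCAM1-negative against VCAM1-high and Met at -0.047 for VCAM1-negative against middle-aged. With median-ratio scaling, Cxcr4 was at 0.043 for VCAM1-negative against VCAM1-high and Sdc4 at -0.060 for VCAM1-high against middle-aged. Leaving out 1 library, changes for VCAM1-negative against VCAM1-high ranged from -0.33 to 0.14 for Calcr, -0.38 to 0.19 for Cxcr4, -0.70 to 0.080 for Cd34 and -0.65 to 0.24 for Chrdl2. For VCAM1-high against middle-aged they ranged from -0.42 to 0.15 for Vcam1, -0.65 to 0.17 for Cdh15, -0.30 to 0.0012 for Ncam1 and -0.21 to 0.13 for Sdc4. Without a change of sign, ranges moving over 1.5 times were, for VCAM1-negative against VCAM1-high, -0.75 to -0.04 for Sdc3, -0.31 to -0.05 for Met and -0.48 to -0.20 for Sdc4. Against middle-aged, VCAM1-negative ranges were -1.31 to -0.53 for Cd34, -1.38 to -0.28 for Chrdl2, 0.47 to 0.97 for Cxcr4, 0.11 to 0.40 for Met and -0.59 to -0.25 for Sdc4, and VCAM1-high ranges -0.96 to -0.23 for Cd34, -1.06 to -0.04 for Chrdl2, 0.26 to 0.55 for Met and -0.71 to -0.04 for Sdc3. Groups of 2 or 3 libraries limit every comparison.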

Other observations

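Vcam1 was set against the other 9 genes within each library, a ratio that library scaling does not touch. Vcam1 stood at 2.02, 1.79 and 0.686 times the geometric mean of the other 9 in VCAM1-negative replicates 1 to 3, at 2.89 and 2.37 times in VCAM1-low replicates 1 and 2, at 5.55, 3.37 and 3.06 times in VCAM1-high replicates 1 to 3, and at 4.79, 4.28 and 2.57 times in middle-aged replicates 1 to 3. The ratio was lower in each VCAM1-negative library than in every library of the other groups, and VCAM1-high and middle-aged libraries overlapped. The geriatric gates were set on VCAM1 protein, so this order checks the sort and is no independent result. In VCAM1-negative replicate 3 Cdh15 stood at 3.33 times Vcam1, against 0.409 to 0.992 times in the other 10 libraries. A ratio within a library shows unequal change between transcripts and not which of them changed.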
